A study of Mus musculus with 7 samples.

Results

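The genes described here encode 9 proteins of nuclear RNA decay: the subunits ZCCHC8 and RBM7 of the nuclear exosome targeting (NEXT) complex, ZFC3H1, PABPN1 and ZC3H3 of PAXT, the exosome targeting connection for poly(A) tails, the adaptor ZC3H18, and EXOSC3, EXOSC10 and DIS3 of the RNA exosome. They were chosen by symbol and not by a rule on their levels, with earlier results of these data known. All 9 were found among the 22556 genes of the expression table. Each was read in all 7 libraries, and each was among the 13599 genes that averaged 1 RPM or more and were tested; RPM is the read pairs of a gene per 1000000 read pairs on genes.

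The libraries hold chromatin-associated RNA (ChrRNA-seq) from the C7H8 clone of XX mouse embryonic stem cells (mES cells) of Cast x 129S background, in which a TetOn promoter replaces the Xist promoter on the Cast allele. The cells carry no tag or deletion in any of the 9 genes as the labels describe them, come from 1 clone and were grown on mitomycin-inactivated fibroblast feeders with LIF. There were 3 DMSO libraries and 4 with the METTL3 inhibitor STM2457 (METTL3i), of which 2 had 10 µM, 1 had 20 µM and 1 had 30 µM. Each treatment lasted 6 h and was then continued with doxycycline (Dox) for 24 h, so that Xist was induced in every library and no library lacks Dox. The study asked with these cells what m6A does on Xist RNA, and the comparisons here give the levels of the decay genes in the same libraries.

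The RNA exosome degrades RNA from its 3′ end, and in the nucleus it receives substrates through the helicase MTR4 (Mtrex). In NEXT, ZCCHC8 is the scaffold that holds MTR4 and the RNA-binding protein RBM7, and the complex is known for short, unprocessed or early terminated transcripts. In PAXT, ZFC3H1 links MTR4 to the nuclear poly(A)-binding protein PABPN1, and the connection is known for longer, polyadenylated nuclear RNAs. METTL3 is the catalytic subunit of the enzyme that writes m6A, most often at the A of GGACT and similar sequences.

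Depth ran from 9300549 read pairs at 20 µM to 28030180, with a median of 23367051, and the 9 genes had between 85 and 8117 read pairs in a library. The libraries fell into 2 sets by the sign of the first principal component of 13103 autosomal genes, which held 78.8% of the variance: set 1 was DMSO replicates 1 and 2 and both 10 µM libraries, and set 2 was DMSO replicate 3, 20 µM and 30 µM. The 9 genes are themselves among those 13103, so differences between the sets are given with no test. The matched DMSO library below is the one of the same number for 10 µM and, by library set alone, DMSO replicate 3 for 20 µM and 30 µM. Xist stood at 1540.0 to 1720.2 RPM in set 1 and at 3209 to 5172 RPM in set 2. Of 8 mES cell markers, 7 were above 0 in every library, with sums of 1550.1 to 2023 RPM, and Sox2 was listed at 0 in all 7. Some markers had all of set 2 below all of set 1 in RPM, where 39.8% of all tested genes did. These were Dppa5a (26.3 to 37.2 in set 1, 4.71 to 9.89 in set 2), Klf4 (56.0 to 70.5, 23.4 to 38.0) and Tfcp2l1 (382 to 455, 251 to 308). For Pou5f1, Nanog, Esrrb and Zfp42 the sets overlapped. The sums of 9 fibroblast markers were 4.21 to 6.41 RPM, with Lum, Dcn, Postn and Col3a1 at 0 in at least 2 libraries each, and those of 8 differentiation markers 13.7 to 17.6 RPM. Lars2, Cmss1, Gphn, Cdk8 and Camk1d together took 8.92% of the read pairs at 20 µM, 1.16% in DMSO replicate 3, 0.700% at 30 µM and at most 0.237% elsewhere. In whole-library RNA values, fewer cells of a type and less RNA per cell cannot be told apart. Since 20 µM and 30 µM are found only in set 2 and 10 µM only in set 1, dose and set overlap, and a fit with the set as a term is given beside the slope over dose.

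Zcchc8, the NEXT scaffold, was higher in the 3 libraries of set 2 than in the 4 of set 1. It stood at 72.4, 62.3 and 100.1 RPM in the 3 DMSO libraries and at 71.0 and 60.5 RPM with 10 µM, and the 20 µM and 30 µM libraries had 96.1 and 110.4 RPM. The DMSO libraries therefore spanned most of the range of the treated ones, and each 10 µM library lay close to the DMSO library of its number. The ratio of 10 µM to the same-numbered DMSO library was 0.980 (95% interval of counting error 0.914 to 1.05) for replicate 1 and 0.971 (0.905 to 1.04) for replicate 2. Against DMSO replicate 3, the ratio was 0.960 (0.887 to 1.04) at 20 µM and 1.10 (1.04 to 1.17) at 30 µM. DMSO replicate 3 itself was 1.38-fold above DMSO replicate 1 (1.29 to 1.48) and 1.61-fold above DMSO replicate 2 (1.51 to 1.71). The 4 ratios of inhibitor to matched DMSO library lay nearer to 1. For 20 µM and 30 µM the matched library was chosen because it shares their set, so closeness to it is in part fixed by that choice. The intervals given for ratios between libraries cover counting error only and leave out the spread between replicate libraries. Reads without molecular identifiers are not independent molecules, so these intervals may be too narrow even for counting error.

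Zcchc8 lies at chr5:123698301-123721044 on the minus strand (mm10) and is a gene of 14 exons. Its promoter stretch is shown because the gene stood apart between the library sets. It is the exon-free 194 bases of the RefSeq window (GRCm38.p6), chr5:123721101-123721294, written 5′ to 3′ on the gene's strand, and holds none of the 5 motifs searched, while the rest of the window holds 2 GC boxes.
Zcchc8 promoter: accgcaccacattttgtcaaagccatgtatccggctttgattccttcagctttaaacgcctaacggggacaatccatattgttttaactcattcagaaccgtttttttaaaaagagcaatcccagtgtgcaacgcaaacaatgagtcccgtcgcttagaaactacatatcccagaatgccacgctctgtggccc
The motifs were searched on both strands of windows of 250 bases before to 50 after each start, and capitals mark them in the sequences printed here. The CCAAT box, spelled CCAAT, occurred in 37.4% of 32851 windows. The GC box, spelled GGGCGG, occurred in 35.7% and the ETS core, spelled CCGGAAG, in 8.86% of them. An E-box of the letters CACGTG occurred in 7.15% and a TATA box of the letters TATAAA in 13.6%. A match is a run of letters, and binding was not measured.

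Rbm7, which encodes the RNA-binding subunit of NEXT, was lower in set 2 than in set 1 in RPM. It stood at 23.6, 27.8 and 18.9 RPM in DMSO and at 25.7 and 31.2 RPM with 10 µM, and the 20 µM and 30 µM libraries had 21.6 and 21.1 RPM. In RPM all 3 libraries of set 2 were below all 4 of set 1, while after scaling with TMM factors the sets overlapped, at 22.3 to 28.7 in set 1 and 20.4 to 24.0 in set 2. TMM scaling divides the RPM of each library by a factor that evens out the bulk of the genes, and it was compared between the sets after the data had been seen. Within each set, every inhibitor library was above its DMSO library, by 1.09-fold (0.967 to 1.23), 1.12-fold (1.01 to 1.24), 1.15-fold (0.963 to 1.36) and 1.12-fold (0.977 to 1.28), and 3 of these 4 intervals hold 1. The ratio of Rbm7 to Zcchc8 RPM within a library therefore separated the sets, with 0.326 to 0.516 in set 1 and 0.188 to 0.225 in set 2. Rbm7 lies at chr9:48488696-48495330 on the minus strand.

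**Figure D1:**
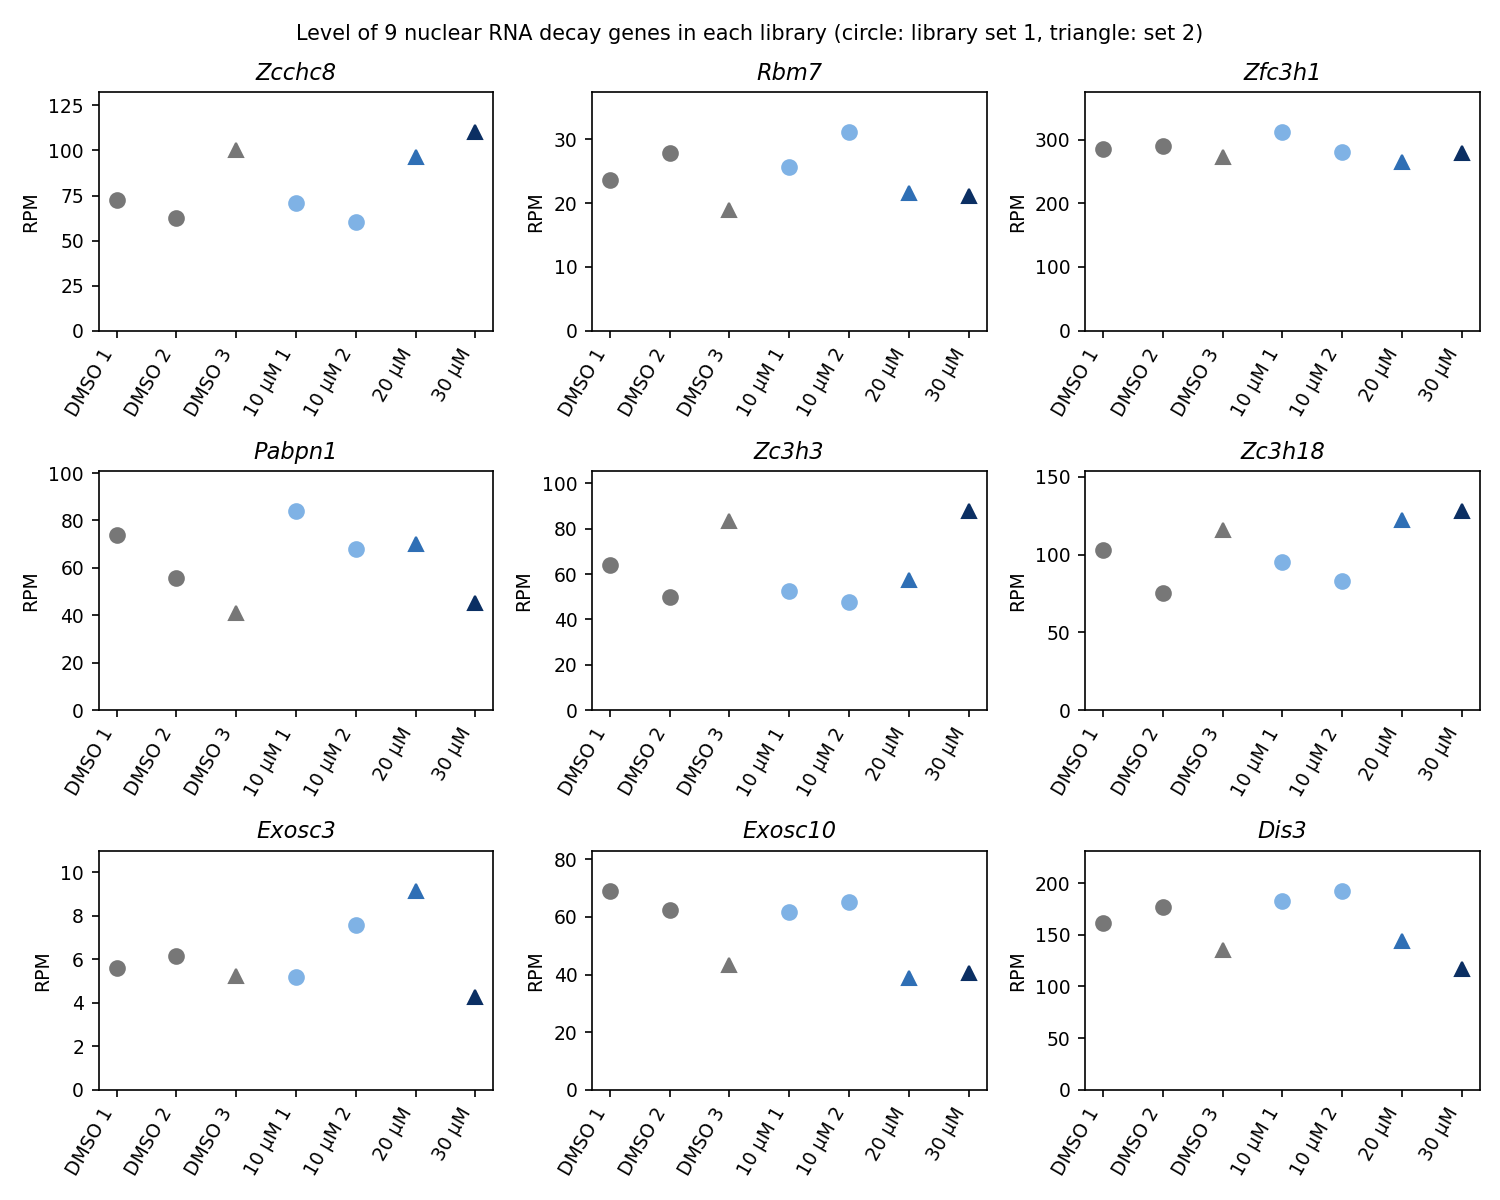
RPM of each of the 9 genes (vertical axis, from 0) in each of the 7 libraries (horizontal axis), 1 panel a gene, with circles for library set 1 and triangles for set 2. Zcchc8 and Zc3h18 have all triangles above all circles, and Rbm7, Zfc3h1, Exosc10 and Dis3 all triangles below in these unscaled RPM. After scaling with TMM factors, which is not drawn, only Exosc10 of those 4 kept all of set 2 below, and Zc3h3 joined Zcchc8 and Zc3h18 above.

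Zfc3h1, the PAXT scaffold, varied least among the 9 genes in RPM. It stood at 285, 289.6 and 273 RPM in DMSO and at 312 and 280.3 RPM with 10 µM, and the 20 µM and 30 µM libraries had 265 and 279 RPM. Its ratios to the matched DMSO library were 1.10 (1.06 to 1.13) and 0.968 (0.937 to 1.00) at 10 µM, 0.971 (0.926 to 1.02) at 20 µM and 1.02 (0.986 to 1.06) at 30 µM. With 2463 to 8117 read pairs a library, it was also the gene measured with the smallest counting error. The ratio of Zcchc8 to Zfc3h1 RPM, which sets the scaffolds of NEXT and PAXT side by side in 1 library, was 0.254, 0.215 and 0.367 in DMSO and 0.227 and 0.216 with 10 µM, and the 20 µM and 30 µM libraries had 0.363 and 0.396. It was thus higher in set 2 than in set 1, and DMSO replicate 3 lay between 20 µM and 30 µM.

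Zfc3h1 lies at chr10:115384958-115432771 on the plus strand, and the GENCODE gene A130012E19Rik overlaps it on the same strand. Its promoter stretch, the exon-free 250 bases at chr10:115384709-115384958, is shown as that of the gene that varied least, and holds 1 ETS core on the minus strand.
Zfc3h1 promoter: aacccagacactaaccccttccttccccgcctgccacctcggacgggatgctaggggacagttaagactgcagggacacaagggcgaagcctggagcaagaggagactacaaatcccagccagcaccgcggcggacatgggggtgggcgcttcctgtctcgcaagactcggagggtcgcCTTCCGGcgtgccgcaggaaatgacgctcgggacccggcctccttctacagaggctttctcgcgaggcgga

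Pabpn1, encoding the nuclear poly(A)-binding protein, was higher with inhibitor than in the matched DMSO library at every dose. It stood at 73.8, 55.7 and 41.0 RPM in DMSO and at 83.9 and 68.2 RPM with 10 µM, and the 20 µM and 30 µM libraries had 70.0 and 45.2 RPM. The DMSO libraries overlapped all the inhibitor libraries but 10 µM replicate 1, which was above all 3. The ratios were 1.14 (1.06 to 1.21) and 1.22 (1.14 to 1.31) at 10 µM, 1.71 (1.54 to 1.89) at 20 µM and 1.10 (1.01 to 1.21) at 30 µM. The 20 µM library was the shallowest and the one with 8.92% of its read pairs in 5 genes, and 30 µM was 0.646-fold (0.585 to 0.713) of 20 µM, so the ratios had no order by dose. Only Pabpn1 and Rbm7 of the 9 genes were above the matched DMSO library in all 4 inhibitor libraries, where 15.9% of all tested genes were, and none was below in all 4, where 14% were. With TMM factors the same 2 genes were above in all 4, and Exosc10 was below in all 4, where 17.6% were.

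Pabpn1 lies at chr14:54894142-54898927 on the plus strand. GENCODE places Gm20521, a gene on the same strand, over it, so part of its read pairs may belong to that gene, which was not tested. Its transcript with the longest coding sequence, of 1775 bases, holds 7 GGACT, or 3.94 per kb, more than 99.6% of 12472 tested genes with a transcript, where the median was 1.05. Zcchc8 (0.230 per kb) and Dis3 (0.194 per kb), with 1 GGACT each, had the fewest per kb of the 9 genes. These sites are shown because METTL3 is the inhibited enzyme, with GGACT in capitals and 8 bases on either side, 5′ to 3′ on the transcript's strand (GENCODE, GRCm38). Methylation of these sites was not measured in these libraries.
Pabpn1 site 1, coding, chr14:54894287-54894291: ggcgcaggGGACTacgggaac
Pabpn1 site 2, coding, chr14:54894450-54894454: aagagccgGGACTggttgagg
Pabpn1 site 3, coding, chr14:54895819-54895823: ggcaatgtGGACTatggtgca
Pabpn1 site 4, coding, chr14:54897197-54897201: ccgtgcccGGACTaccaacta
Pabpn1 site 5, 3′ UTR, chr14:54897379-54897383: ggttgcagGGACTtggtcctg
Pabpn1 site 6, 3′ UTR, chr14:54897570-54897574: cactgtttGGACTtggttatt
Pabpn1 site 7, 3′ UTR, chr14:54897639-54897643: gcgtgggaGGACTgttcccaa
Zcchc8 site 1, coding, chr5:123707289-123707293: agaattctGGACTtgcactct
Dis3 site 1, coding, chr14:99084072-99084076: gtctccgtGGACTcaatcagc
As a description, the 625 tested genes with the most GGACT per kb (the top 5%, at least 2.49 per kb) had a median log2 difference from the matched DMSO library of -0.03 and 0.12 in the 10 µM pairs, and of -0.07 and 0.06 with 20 µM and 30 µM. The medians over all 12472 genes were -0.02, 0.06, -0.10 and 0.04. In the same order, 46.1%, 72.2%, 43.7% and 61.4% of the dense genes were above the matched DMSO library. Among all 12472 genes the shares were 46.4%, 62.7%, 38.2% and 56.9%. A link between GGACT and these differences was not tested.

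Zc3h3, a zinc finger protein gene that works with PAXT, stood at 64.0, 49.9 and 83.5 RPM in DMSO and at 52.7 and 47.7 RPM with 10 µM, and the 20 µM and 30 µM libraries had 57.5 and 87.7 RPM. DMSO replicate 3 and 30 µM were the highest and stood apart from the other 5 libraries. Its ratio to the matched DMSO library was 0.823 (0.762 to 0.888) and 0.955 (0.882 to 1.03) at 10 µM, 0.689 (0.624 to 0.759) at 20 µM and 1.05 (0.985 to 1.12) at 30 µM. It was the gene of the 9 furthest below its DMSO library at 20 µM, and the ratio of 30 µM to 20 µM was 1.52 (1.39 to 1.68). Zc3h3 lies at chr15:75754446-75841908 on the minus strand and, with 87.463 kb, is the longest of the 9 genes.

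Zc3h18, whose product bridges the cap-binding complex to NEXT and PAXT, followed Zcchc8. It stood at 103, 75.5 and 116 RPM in DMSO and at 95.6 and 83.0 RPM with 10 µM, and the 20 µM and 30 µM libraries had 123 and 128 RPM. All of set 2 was above all of set 1, although DMSO replicates 1 and 2 also differed, with a ratio of 0.731 (0.688 to 0.777). Against the matched DMSO library the ratios were 0.925 (0.873 to 0.981) and 1.10 (1.03 to 1.17) at 10 µM, 1.06 (0.986 to 1.14) at 20 µM and 1.10 (1.05 to 1.17) at 30 µM, so the 10 µM libraries lay on opposite sides of their DMSO libraries.

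Zc3h18 lies at chr8:122376615-122417360 on the plus strand, overlapped on that strand by the GENCODE gene Gm20388. Its exon-free promoter stretch of 164 bases, chr8:122376445-122376608, is shown beside that of Zcchc8 because both genes were higher in set 2. It holds 2 GC boxes and 1 ETS core, none of which occurs in the exon-free Zcchc8 stretch. Over the full windows both genes have 2 GC boxes, and only Zc3h18 has an ETS core.
Zc3h18 promoter: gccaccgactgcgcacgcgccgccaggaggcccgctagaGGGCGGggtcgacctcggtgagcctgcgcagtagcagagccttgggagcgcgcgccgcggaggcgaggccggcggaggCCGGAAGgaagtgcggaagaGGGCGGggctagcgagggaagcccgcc

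Exosc10, the nuclear exonuclease subunit of the exosome (RRP6), was lower in set 2 than in set 1, in RPM and with TMM factors, opposite to Zcchc8. It stood at 69.1, 62.6 and 43.2 RPM in DMSO and at 61.6 and 65.1 RPM with 10 µM, and the 20 µM and 30 µM libraries had 38.8 and 40.4 RPM. The 2 sets were separated by a gap from 43.2 to 61.6 RPM, which lay between DMSO libraries. DMSO replicate 3 was 0.626-fold (0.575 to 0.680) of DMSO replicate 1 and 0.691-fold (0.637 to 0.748) of DMSO replicate 2. Against the matched DMSO library the ratios were nearer to 1, at 0.892 (0.830 to 0.959) and 1.04 (0.970 to 1.11) at 10 µM, 0.898 (0.793 to 1.02) at 20 µM and 0.934 (0.852 to 1.02) at 30 µM. The 20 µM and 30 µM ratios use a DMSO library chosen by set, so their closeness to 1 is in part fixed by that choice. The ratio of Zcchc8 to Exosc10 RPM within a library was 0.929 to 1.15 in set 1 and 2.32 to 2.73 in set 2.

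Exosc10 lies at chr4:148558426-148582400 on the plus strand. Its exon-free promoter stretch, the 250 bases at chr4:148558169-148558418, is shown as that of the gene lowest in set 2 relative to set 1, and holds none of the 5 motifs. It belongs to the first of 2 RefSeq starts. The window of the second, chr4:148558463-148558762, holds 2 ETS cores and is not printed.
Exosc10 promoter: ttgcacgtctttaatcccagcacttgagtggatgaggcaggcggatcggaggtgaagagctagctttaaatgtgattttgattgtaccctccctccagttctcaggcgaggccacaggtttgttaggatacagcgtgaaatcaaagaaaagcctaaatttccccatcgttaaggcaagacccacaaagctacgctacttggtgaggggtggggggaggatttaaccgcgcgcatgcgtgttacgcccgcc
A GC box occurs in the rest of the first window. Over the 8 genes with a RefSeq window (10 windows, none found for Zc3h3), the median number of CpG was 27.5, against 7 over all windows. Each window of Zc3h18 and Exosc10 was counted, and the windows of all genes were not limited to tested genes.

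Dis3, the other catalytic subunit of the nuclear exosome, stood at 161, 177 and 135 RPM in DMSO and at 183 and 193 RPM with 10 µM, and the 20 µM and 30 µM libraries had 144 and 117 RPM. Both 10 µM libraries were above all 3 DMSO libraries, the only such case among the 9 genes, where 16.6% of all tested genes did so. None of the 9 had both 10 µM libraries below all DMSO libraries, where 8.74% did. The ratios to the matched DMSO library were 1.13 (1.08 to 1.18) and 1.09 (1.05 to 1.13) at 10 µM, 1.06 (0.997 to 1.14) at 20 µM and 0.866 (0.821 to 0.912) at 30 µM, so the direction at 30 µM was opposite to that at 10 µM. Dis3 lies at chr14:99076633-99099770 on the minus strand, and Pibf1 overlaps it on the other strand, with counting by strand.

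Exosc3, a cap subunit of the exosome core, was the gene with the fewest read pairs, 85 to 178 a library. It stood at 5.59, 6.14 and 5.22 RPM in DMSO and at 5.16 and 7.58 RPM with 10 µM, and the 20 µM and 30 µM libraries had 9.14 and 4.28 RPM. Its ratio to the matched DMSO library was 0.923 (0.714 to 1.19) and 1.24 (0.997 to 1.53) at 10 µM, 1.75 (1.31 to 2.34) at 20 µM and 0.820 (0.620 to 1.08) at 30 µM. Only the 20 µM interval does not hold 1, and it rests on 85 read pairs in the shallowest library. Exosc3 lies at chr4:45316629-45320603 on the minus strand and, at 3.975 kb, is the shortest of the 9 genes.

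**Figure D2:**
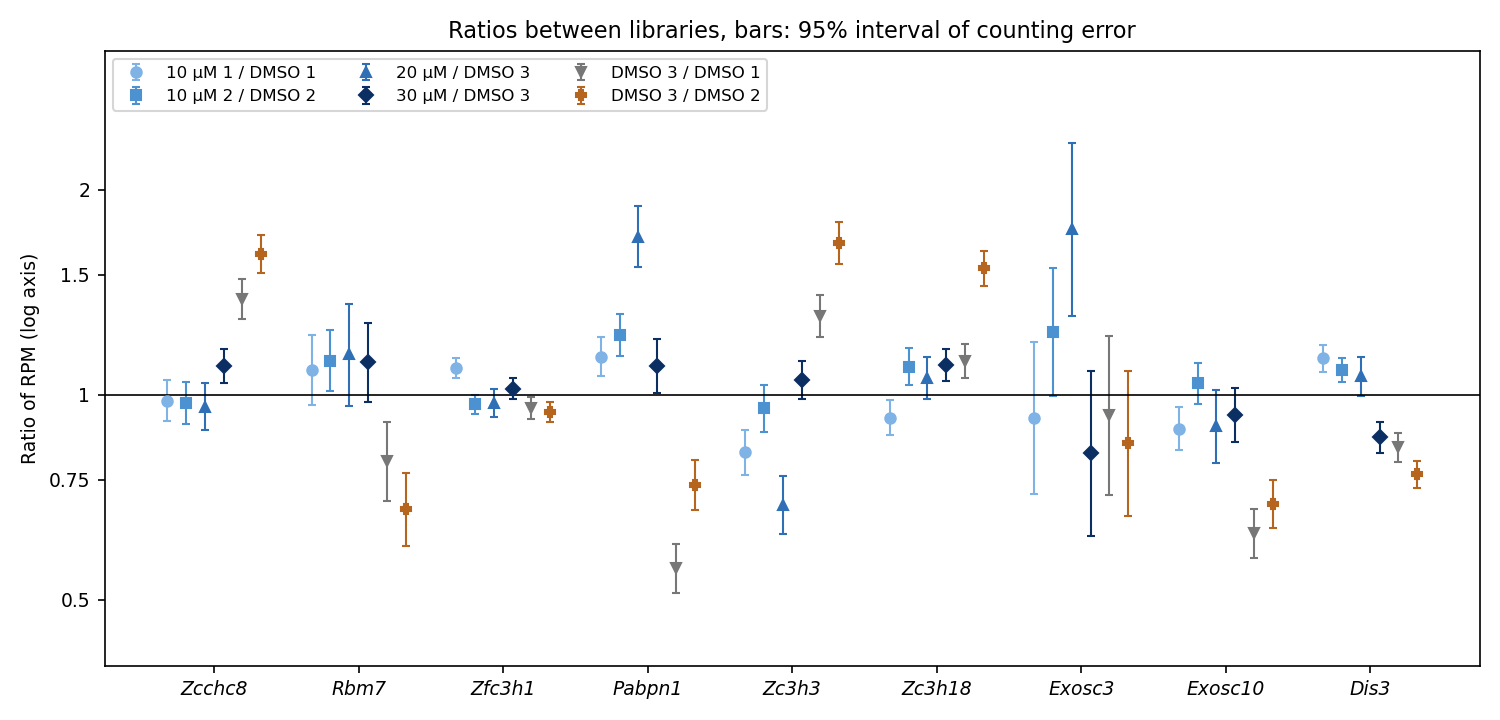
Ratio of RPM between 2 libraries (vertical log axis) for each of the 9 genes, with bars for the 95% interval of counting error; blue symbols are inhibitor over matched DMSO, and the grey and brown symbols are DMSO replicate 3 over DMSO replicates 1 and 2. For Zcchc8 and Exosc10 the DMSO ratios (1.38 and 1.61, 0.626 and 0.691) lie further from 1 than every inhibitor ratio. The same holds for Rbm7 (0.799 and 0.679), Dis3 (0.837 and 0.764) and Zc3h18 (1.12 and 1.53). For Zc3h18 the margin is narrow, since its highest inhibitor ratio is 1.10. It does not hold for Zfc3h1, Pabpn1, Zc3h3 and Exosc3. For Pabpn1 and Rbm7 all 4 inhibitor ratios are above 1.

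Between DMSO libraries alone, 2 of the 9 genes (Zcchc8 and Zc3h3) were at least 1.2-fold higher in replicate 3 than in both other replicates, where 18.5% of all tested genes were and 3 (Rbm7, Pabpn1 and Exosc10) at least 1.2-fold lower, where 40% were. With TMM factors 3 genes were higher by that fold (Zcchc8, Zc3h3 and Zc3h18, beside 27.5% of tested genes) and 2 lower (Pabpn1 and Exosc10, beside 30.6%). In RPM over all libraries, 2 of 9 genes (Zcchc8 and Zc3h18) had all of set 2 above all of set 1, against 18.7% of tested genes, and 4 (Rbm7, Zfc3h1, Exosc10 and Dis3) all of set 2 below, against 39.8%. With TMM factors, 3 genes (Zcchc8, Zc3h3 and Zc3h18) had all of set 2 above, against 28.3% of tested genes, and 1 (Exosc10) all of set 2 below, against 30.1%. The sets then overlapped for Rbm7, Zfc3h1 and Dis3, at 258 to 296 and 292 to 295 for Zfc3h1 and at 152 to 177 and 123 to 160 for Dis3. The mean log2 difference in RPM, set 2 minus set 1, was 0.61 for Zcchc8, 0.49 for Zc3h3, 0.46 for Zc3h18, -0.03 for Exosc3, -0.10 for Zfc3h1, -0.38 for Rbm7, -0.43 for Dis3, -0.45 for Pabpn1 and -0.65 for Exosc10. With TMM factors it was 0.80 for Zcchc8 and -0.46 for Exosc10, and it turned from below 0 to 0.09 for Zfc3h1 and 0.14 for Exosc3. Over all tested genes the RPM difference moved with gene length, with a median of -0.46 in the shortest 4533 genes, -0.16 in the middle 4533 and 0.009 in the longest (Spearman's rho across 13599 genes 0.325, as a description, since all genes share the libraries). Among the short genes, Exosc3 lay above 76.5%, Rbm7 above 54.9% and Pabpn1 above 50.8%. Among those of middle length, Zcchc8 lay above 91.5%, Zc3h18 above 86.6%, Dis3 above 31.5% and Exosc10 above 20.5%. Zc3h3 lay above 79.2% of the long genes and Zfc3h1 above 42.6%. Zcchc8 and Exosc10, the highest and the lowest of the 9 genes in this difference, span 22.744 kb and 23.975 kb.

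**Figure D3:**
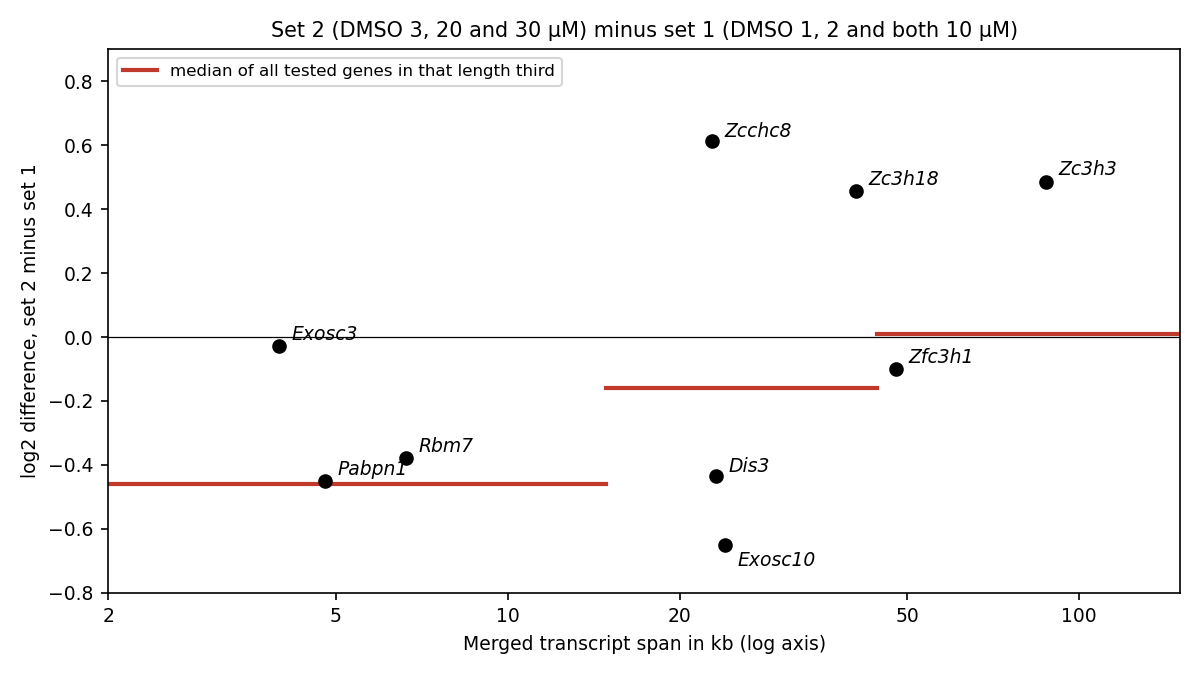
Mean log2 difference of (RPM + 1), set 2 minus set 1 (vertical axis), against merged transcript span in kb (horizontal log axis) for the 9 genes, with red lines for the median of all tested genes in the short, middle and long genes. Zcchc8 (0.61) is the highest and Exosc10 (-0.65) the lowest of the 9 genes, at nearly the same length.

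Between 10 µM and DMSO, no call was made for any of the 9 genes. In limma on log2(RPM + 1) over 2 and 3 libraries, 0 of the 13599 genes tested passed an adjusted p of 0.05 (0% called; 212 at an unadjusted p under 0.05, or 1.56%; edgeR made 0 calls and DESeq2 1), and the adjusted p of the 9 genes was 0.811 to 0.869. Pabpn1 had the largest estimate, 0.45 (SE 0.26), and Zc3h3 the lowest, -0.36 (SE 0.23). With 1 library left out, the estimate of Pabpn1 ran from 0.24 without DMSO replicate 3 to 0.65 without DMSO replicate 1, and that of Zc3h3 from -0.54 without DMSO replicate 2 to -0.17 without DMSO replicate 3. The 95% intervals of the 9 genes reached at most from 0.530-fold to 2.10-fold. These outer limits come from different genes, so the range of differences that was not resolved is narrower for each gene. Replicates 1 and 2 were pairs of wells from the same batch of cells, and a fit with the replicate as a block over those 4 libraries called 1020 genes (7.5% of those tested; 561 higher and 459 lower) and again none of the 9. That fit has 1 residual degree of freedom a gene, so its errors rest mostly on the spread pooled across genes. Pabpn1 came nearest there, with a log2 difference of 0.24 (SE 0.082, 95% interval 0.07 to 0.40) and an adjusted p of 0.0556 by limma and 0.148 by edgeR. In the same blocked fit, Dis3 had 0.15 (SE 0.068, adjusted p = 0.176 by limma) and Zc3h3 -0.17 (SE 0.090, adjusted p = 0.264). Zcchc8 had -0.04 (SE 0.084), with an interval of -0.20 to 0.13, and Zfc3h1 0.04 (SE 0.064), with an interval of -0.08 to 0.17. By matched library, 3 genes (Rbm7, Pabpn1 and Dis3) were above DMSO in both pairs, where 36.3% of all tested genes were, and 2 (Zcchc8 and Zc3h3) below in both, where 26.9% were. With TMM factors Exosc10 was also below in both, where 32.8% were.

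Across dose, Exosc10 had the steepest slope downward and Zcchc8 upward, and neither passed the test. In limma over the 7 libraries, 0 of 13599 genes passed (0%; 1174 at an unadjusted p under 0.05, or 8.63%; edgeR made 0 calls and DESeq2 129), and the slopes per 10 µM on the log2 scale were -0.19 (SE 0.097) for Exosc10, 0.17 (SE 0.098) for Zcchc8, 0.14 (SE 0.083) for Zc3h18 and -0.12 (SE 0.079) for Dis3, with adjusted p of 0.508, 0.508, 0.508 and 0.512. The slope of Zcchc8 fell to 0.084 without the 30 µM library, and that of Zc3h18 was 0.094 without DMSO replicate 2. The slope of Dis3 was 0.0016 without the 30 µM library. The other 5 genes had slopes between -0.04 and 0.09. With the library set as a term, which called 27 genes (0.199%) and compares libraries within a set, the slope was -0.04 (SE 0.054) for Exosc10, 0.02 (SE 0.058) for Zcchc8, 0.04 (SE 0.063) for Zc3h18 and -0.02 (SE 0.056) for Dis3. The largest slope in that fit was 0.12 (SE 0.094) for Pabpn1, with an adjusted p of 0.788, and the 95% intervals of the 9 genes reached from 0.833-fold to 1.25-fold per 10 µM. Without DMSO replicate 3, the slopes of Zcchc8 (0.25, SE 0.074, adjusted p = 0.0447 by limma) and Exosc10 (-0.27, SE 0.075, adjusted p = 0.0398) passed, as did 2485 genes in all (18.3%). In that fit DMSO and 10 µM are all of set 1 and 20 µM and 30 µM all of set 2, so that dose above 10 µM and library set cannot be told apart.

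**Figure D4:**
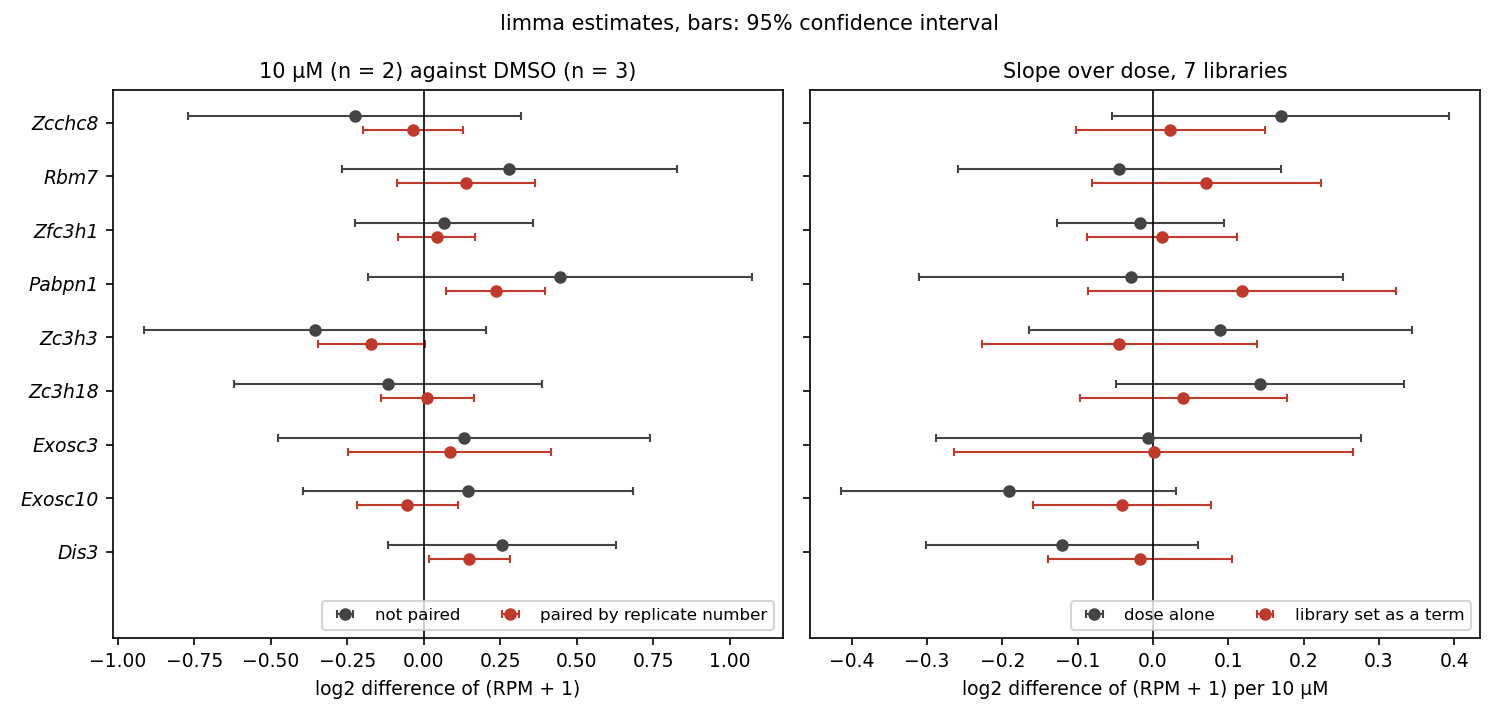
limma estimates with 95% confidence intervals for the 9 genes, at left the log2 difference between 10 µM and DMSO, without pairing (grey) and paired by replicate number (red), at right the slope per 10 µM with dose alone (grey) and with the library set as a term (red). The slopes of Zcchc8 (0.17 to 0.02) and Exosc10 (-0.19 to -0.04) shrink toward 0 with the set term, and the paired intervals of Pabpn1 and Dis3 lie above 0.

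The single libraries at 20 µM and 30 µM have no replicate, and both were set against DMSO replicate 3, so their ratios share that control. At 20 µM, 2 of the 9 genes (Pabpn1 and Exosc3) were at least 1.2-fold above it, where 19.6% of all tested genes were, and 1 (Zc3h3) at least 1.2-fold below, where 33.4% were. At 30 µM none of the 9 was at least 1.2-fold above, where 24.9% were, and 1 (Exosc3, with 100 read pairs) at least 1.2-fold below, where 14.2% were. Rbm7, Pabpn1 and Zc3h18 were above DMSO replicate 3 at both doses (29.2% of tested genes) and Exosc10 below at both (34.1%). With TMM factors Zfc3h1 was below at both as well (37.4%). The median log2 difference of the 9 genes was 0.08 at 20 µM and 0.07 at 30 µM, against -0.10 and 0.04 over all tested genes. Scaling with TMM factors moved the median of all genes by -0.12 to 0.14 (log2), downward in the 4 libraries of set 1 and upward in the 3 of set 2, and leaving the 5 dominant genes out of the totals raised 20 µM by 0.13. Under TMM the dose slopes of Zfc3h1, Pabpn1 and Exosc3 turned from below 0 to 0.02, 0.0078 and 0.03.

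Per kb of merged transcript span, introns included, Pabpn1 had the highest level, 13.1 ± 3.28 RPM per kb (SD over 7 libraries). Dis3 followed with 6.85, Zfc3h1 with 5.93, Rbm7 with 3.66, Zcchc8 with 3.60, Zc3h18 with 2.54, Exosc10 with 2.27, Exosc3 with 1.55 and Zc3h3 with 0.724 RPM per kb. Ranges over the 7 libraries did not overlap between Pabpn1 and Dis3, between Zfc3h1 and Rbm7 and between Exosc3 and Zc3h3, and overlapped between all other neighbours in this order. Pabpn1 lay above 98.0% of the tested genes per kb and Zc3h3 above 39.2%. Per kb of merged exons the order was instead Zfc3h1 (36.1), Pabpn1 (20.6), Dis3 (20.4), Zc3h3 (18.0), Zcchc8 (15.6), Exosc10 (15.1), Zc3h18 (11.2), Rbm7 (4.91) and Exosc3 (4.65). The first place of Pabpn1 and the places of Zfc3h1, Zc3h3 and Rbm7 therefore depend on which length is used.

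**Figure D5:**
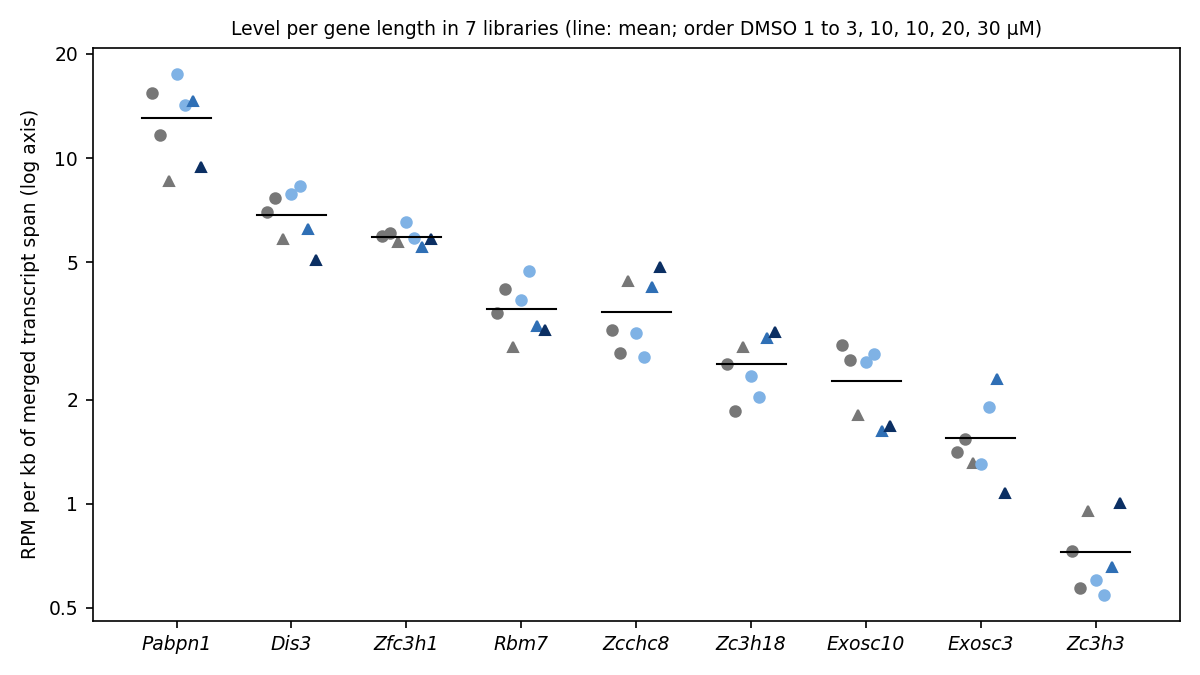
RPM per kb of merged transcript span (vertical log axis) for the 9 genes in order of their mean, with a symbol for each of the 7 libraries and a line for the mean. Pabpn1 lies at 8.57 to 17.5 in every library, above all values of the next gene, Dis3.

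Of 28 other genes of nuclear RNA decay, all were tested and none passed an adjusted p of 0.05 in the limma fits of 10 µM and of dose, in the paired fit or in the fit with the library set. The lowest adjusted p in these limma fits was 0.0976 (Tent4a in the paired fit), and the lowest in the paired edgeR fit was 0.0730. Tent4a (Papd7 in the table), a noncanonical poly(A) polymerase gene, stood at 55.3, 45.8 and 54.8 RPM in DMSO and at 45.1 and 40.1 RPM with 10 µM, and the 20 µM and 30 µM libraries had 29.7 and 39.1 RPM. Both 10 µM libraries were below all 3 DMSO libraries, where 8.74% of all tested genes were, though 45.1 and 45.8 RPM lie close together. All 4 inhibitor libraries were below the matched DMSO library, where 14% were. The slope of Tent4a was -0.20 (SE 0.081, adjusted p = 0.508 by limma) by dose alone and -0.21 (SE 0.080, adjusted p = 0.383) with the set term. Dis3l, encoding the cytoplasmic counterpart of DIS3, stood at 13.1, 11.3 and 13.5 RPM in DMSO and at 10.7 and 13.0 RPM with 10 µM, and the 20 µM and 30 µM libraries had 24.2 and 22.2 RPM. Its 20 µM and 30 µM libraries were each at least 1.2-fold above DMSO replicate 3, where 19.6% and 24.9% of all tested genes were. The slope of Dis3l was 0.30 (SE 0.10, adjusted p = 0.508) by dose alone and 0.20 (SE 0.087, adjusted p = 0.456) with the set term. Exosc6, an exosome core subunit gene, had at 10 µM a difference of 0.45 (SE 0.30, adjusted p = 0.811), from 5.16, 5.71 and 3.96 RPM in DMSO to 5.40 and 9.20 RPM. Mtrex (Skiv2l2 in the table), the helicase that NEXT and PAXT share, stood between 178 and 197 RPM in all 7 libraries. By matched library at 10 µM, 11 of the 28 genes were above DMSO in both pairs and 6 below, beside the 36.3% and 26.9% of all tested genes. Without DMSO replicate 3, 3 of the 28 genes (Exosc8, Tent4b and Rbm27) passed for dose, beside 18.3% of all tested genes. In that fit set and dose above 10 µM cannot be told apart.

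The genes whose log2 levels over the 7 libraries were most like Zcchc8 were Ror1 (Pearson's r 0.998), Dnal1 (0.997), Pik3r3 (0.997), St3gal2 (0.996) and Bmp8a (0.996), and 1380 genes had r above 0.9 with it. Those most like Zfc3h1 were Nufip1 (0.957), Dock4 (0.950), Zfp277 (0.943), Abhd17c (0.941) and Clstn2 (0.937), and 31 genes had r above 0.9. All of these values share the same 7 libraries, their depth and the split into 2 sets, and they are descriptions. Among the 9 genes, Zcchc8 went with Zc3h18 (r = 0.947) and Zc3h3 (0.868) and against Dis3 (-0.960), Rbm7 (-0.918) and Exosc10 (-0.918) over these libraries.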

How the data were processed

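ChrRNA-seq libraries from C7H8 mES cells were used: DMSO (3), 10 µM (2), 20 µM (1) and 30 µM (1) STM2457, grouped by their labels. Before deposit, the authors discarded rRNA reads (Bowtie2), mapped the remainder uniquely to an N-masked mm10 genome (STAR) and counted read pairs per gene, introns included, by strand (featureCounts). The values the authors deposited are RPM, made with edgeR. Their methods name more than 1 rRNA removal kit, and which library had which is not given in the sources used here. Allelic ratios were not used, since none of the 9 genes is X-linked.

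Whole read pairs were recovered from the RPM steps (100% of values within 0.01 of a whole number). Genes that averaged 1 RPM or more were tested on log2(RPM + 1) with limma 3.58.1 (trended eBayes, Benjamini-Hochberg adjustment over 13599 genes), for 10 µM against DMSO and for the slope over dose. edgeR 4.0.16 (quasi-likelihood) and DESeq2 1.42.0 on the recovered read pairs, other filters, pseudocounts (0.1) and scalings, and leaving out each library were alternatives. Scripts were checked on simulated data. Per the study's methods, wells of a biological replicate came from the same batch of cells. The log2 differences of replicate 1 minus replicate 2 in DMSO and at 10 µM correlated over the tested genes with r = 0.621. The paired fit is therefore given beside the results where it matters. Setting 20 µM and 30 µM against DMSO replicate 3 is a choice made from the data, since their labels give no pairing. The p-values measure the spread between these samples, of 1 clone.

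Starts and ends are as in the expression table (mm10), whose starts were 1 below RefSeq's for 58.5% of 21082 matched genes. The 9 genes were fixed by symbol, the 28 others by role. Also named are the 2 of those with the lowest p in each comparison where none passed, Mtrex, and the 5 genes most correlated with Zcchc8 and with Zfc3h1. Members, lists and library sets were chosen with earlier results of these data known.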

Additional observations from a re-analysis of the deposited data

How the results depend on the processing

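In the comparison of 10 µM with DMSO, the count of genes past the threshold was 0 in the reported fit, 1 with DESeq2, 0 to 1 with each library left out in turn, 1020 with the replicate block and 837 with the block in edgeR (added after seeing the data). For the dose slope it was 0, against 129 with DESeq2, 27 with the library set as a term, 73 with that term in edgeR (also added), 1020 in the fit of the paired 10 µM libraries and 0 to 2485 with each library left out, the 2485 without DMSO replicate 3 and 0 in every other such fit. The replicate block changed no call on the 9 genes. Of 135 member estimates at 10 µM from the alternatives, 125 had the reported sign and call and 10 changed sign. Of 171 estimates set against the dose slopes, 130 had the reported sign and call, 39 changed sign and 2 (Zcchc8 and Exosc10 without DMSO replicate 3) passed. The 171 include the paired 10 µM fit and any inhibitor against DMSO. Both estimate a difference and not a slope over dose, and both add to the sign changes. The cause of the sign changes was not tested, and no estimate that changed sign was past the threshold. At 10 µM, Zfc3h1 went to -0.026 with TMM, -0.021 with edgeR and -0.027 with DESeq2, and with the block Zc3h18 went to 0.012 and Exosc10 to -0.054 (-0.076 in edgeR). With a library left out, the 10 µM estimates ran from -0.05 to 0.28 for Exosc10, -0.11 to 0.37 for Exosc3, -0.29 to 0.01 for Zc3h18 and -0.011 to 0.15 for Zfc3h1. The slopes with TMM were 0.021 for Zfc3h1, 0.0078 for Pabpn1 and 0.026 for Exosc3, and with the 5 dominant genes left out 0.0086 for Exosc3. With edgeR they were 0.00017 for Rbm7, 0.033 for Zfc3h1, 0.030 for Pabpn1 and 0.082 for Exosc3, and with DESeq2 0.027, 0.024 and 0.070 for the last 3. In the paired 10 µM fit the differences were -0.035 for Zcchc8, 0.14 for Rbm7, 0.042 for Zfc3h1, 0.24 for Pabpn1, -0.17 for Zc3h3, 0.085 for Exosc3 and 0.15 for Dis3. With the library set as a term the slopes were 0.071 for Rbm7, 0.012 for Zfc3h1, 0.12 for Pabpn1, -0.045 for Zc3h3 and 0.0010 for Exosc3, and with that term in edgeR 0.066, 0.0051, 0.13, -0.048 and 0.0088. Any inhibitor against DMSO gave 0.084 for Rbm7, 0.0054 for Zfc3h1, 0.24 for Pabpn1, -0.11 for Zc3h3 and 0.14 for Exosc3. With a library left out, slopes ran from -0.18 to 0.0016 for Dis3, -0.10 to 0.27 for Exosc3, -0.13 to 0.22 for Pabpn1, -0.11 to 0.018 for Rbm7 and -0.14 to 0.18 for Zc3h3. At 10 µM the other such ranges were -0.37 to -0.04 for Zcchc8, 0.14 to 0.41 for Rbm7 and 0.15 to 0.34 for Dis3. With TMM factors before the library sets were compared (added after seeing the data), 1 gene in place of 4 had all of set 2 below all of set 1, and the set difference was 0.091 for Zfc3h1 and 0.14 for Exosc3. Depth limits Exosc3 most, with 85 read pairs at 20 µM. The doses of 20 µM and 30 µM have 1 library each, so no spread between replicates is known for them.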
